A study of Homo sapiens with 6 samples.

Results

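The miR-193 family and miR-365 were examined in HuCCT1 cells, an established human cholangiocarcinoma (CCA) line, after TGF-β treatment. The members were the probes named hsa-miR-193b-3p, hsa-miR-193a-3p, hsa-miR-193a-5p, hsa-miR-193b-5p and hsa-miR-365a-3p (the human prefix hsa is left out from here on), 5 of the 2555 human miRNAs on the array. They were chosen by the change of miR-193b-3p between the same 6 arrays, which was among the largest increases with TGF-β, so the comparison of TGF-β with control cells is given for all 5 as a description, without a test. The experiment compared 3 arrays of control cells (0 ng/ml TGF-β) with 3 arrays of cells given 10 ng/ml TGF-β, each at 72 h, to find miRNAs that change when TGF-β induces epithelial-mesenchymal transition (EMT). Each array carried the Cy5-labelled total RNA of a single sample. The labels do not say whether the numbered replicates came from separate cultures, so the spread between arrays may be technical. The labels name no transgene or deletion for either group, and both groups are a single cell line.

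A miRNA precursor is a hairpin whose 5′ and 3′ arms can each yield a mature miRNA, and the seed at bases 2 to 8 of a mature miRNA is the main guide to its target mRNAs. MiR-193b and miR-365a come from neighbouring hairpins in one genomic cluster, and miR-193a and miR-365b come from a paralogous cluster on another chromosome. In other cells, miR-193b-3p is known as a growth-restraining miRNA that targets the urokinase plasminogen activator and cyclin D1 mRNAs, and the miR-193b and miR-365 cluster is known for its part in brown fat differentiation.

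The sequences of the members are shown because the seed groups them in a different way from their place in the genome. They were taken from RefSeq (GRCh38.p14), where all 5 members were found, and are written 5′ to 3′ with the seed in capitals.
miR-193b-3p: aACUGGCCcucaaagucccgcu
miR-193a-3p: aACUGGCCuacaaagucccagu
miR-365a-3p: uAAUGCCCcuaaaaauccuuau
miR-193b-5p: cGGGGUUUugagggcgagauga
miR-193a-5p: uGGGUCUUugcgggcgagauga

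MiR-193b-3p and miR-193a-3p shared the seed ACUGGCC and were identical at 18 of 22 positions. Among the human miRNAs of the RefSeq table, no other miRNA had this seed. The 5p arms of the miR-193 hairpins were also identical at 18 of 22 positions, but their seeds differed. MiR-365a-3p was identical to miR-365b-3p at all 22 positions, and the array holds a single probe named for both, so the signal called miR-365a-3p here is the sum of the products of both clusters. The hairpin MIR193B lies at chr16:14303967-14304049 and MIR365A at chr16:14309285-14309371, with 5235 bases between them. Both lie on the plus strand within the long non-coding RNA gene MIR193BHG. MIR193A lies at chr17:31559996-31560083 and MIR365B at chr17:31575411-31575521, with 15327 bases between them. MIR365B lies within the long non-coding RNA gene MIR365BHG, and MIR193A overlaps no other gene of the RefSeq table.

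Detection on an array meant a brightness more than 2 SD over the mean of its 229 blank spots, and between 327 and 464 human probes were detected per array. The normalized signal is the brightness over the blank mean after scaling, with 25 as every array's median over those 292 probes that passed detection 6 of 6 times. The term expressed is used for the 323 miRNAs that passed detection on every array of a group, in either group or both. The labels give no chip, so it was inferred from the names of the deposited scanner output. By these names TGF-β array 1 shared its chip with the controls, whereas the other TGF-β arrays shared a second chip. All 6 epithelial markers on the list used here (the miR-200 family and miR-205-5p) were expressed. The hepatocyte miRNA miR-122-5p and the 5 stromal and muscle miRNAs with a probe were detected on no array, and of 5 blood miRNAs only miR-223-3p was detected, on 1 TGF-β array.

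Of the 5 members, miR-193b-3p and miR-365a-3p were detected on all 6 arrays, miR-193a-3p was detected on 5, and the 5p arms of miR-193a and miR-193b were detected on none. The 2 members detected on all arrays both had a higher normalized signal with TGF-β, although in the authors' values the groups of both overlapped. MiR-193a-3p, which has the seed of miR-193b-3p, was near the detection limit in both groups. Since probes differ in how strongly they bind, the signals of different members are not set against each other.

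The probe for miR-193b-3p lay 6.76 to 21.3 SD above the blank spots. Its normalized signal was 10.2, 14.5 and 9.33 without TGF-β and 19.6, 22.2 and 16.8 with it, in the order of replicates 1, 2 and 3 that is kept for all members. The groups did not overlap, as all treated arrays exceeded all controls, with control array 2 the highest of the controls and TGF-β array 3 the lowest of the treated arrays. The mean was 11.4 ± 2.78 (SD, n = 3) in the control cells and 19.5 ± 2.70 (SD, n = 3) in the treated cells, a ratio of 1.72. The log2 change was 0.80 (standard error 0.23), the fifth highest (rank 5) of the 323 expressed miRNAs. This is the value for which the members were chosen. In bulk RNA, a change in how many cells express a miRNA and a change in its amount per cell cannot be told apart.

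MiR-365a-3p lay 12.1 to 34.0 SD above the blank spots. Its normalized signal was 24.9, 26.0 and 19.98 without TGF-β and 42.3, 35.5 and 28.4 with it. The groups did not overlap here either, although TGF-β array 3 was only a little above control array 2. The mean was 23.6 ± 3.21 (SD, n = 3) in the control cells and 35.4 ± 6.95 (SD, n = 3) in the treated cells, a ratio of 1.497, just below the limit of 1.5 used in the counts that follow. The log2 change was 0.57 (standard error 0.22), rank 15 of 323. The probe cannot tell miR-365a-3p from miR-365b-3p, so which cluster gave the higher signal cannot be told apart.

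MiR-193a-3p was dim. Its normalized signal was 4.56, 4.31 and 3.82 without TGF-β and 1.61, 3.32 and 6.05 with it. The TGF-β arrays lay on both sides of the controls, and TGF-β array 1, at 0.88 SD above the blank spots, was below detection. On control array 2 it lay 2.00 SD above the blank spots and was the dimmest detected probe of that array. With TGF-β array 1 set to the lowest detected signal of its array, 4.06, the mean was 4.23 ± 0.38 (SD, n = 3) in the control cells and 4.48 ± 1.41 (SD, n = 3) in the treated cells. The log2 change was then 0.04 (standard error 0.25), rank 143 of 323.

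The 5p arms gave no detectable signal in either group. MiR-193b-5p lay between -1.59 and 1.66 SD from the mean of the blank spots and miR-193a-5p between -1.64 and 1.17 SD. Both were therefore below the limit of 2 SD on every array, and no change could be measured for them.

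**Figure D1:**
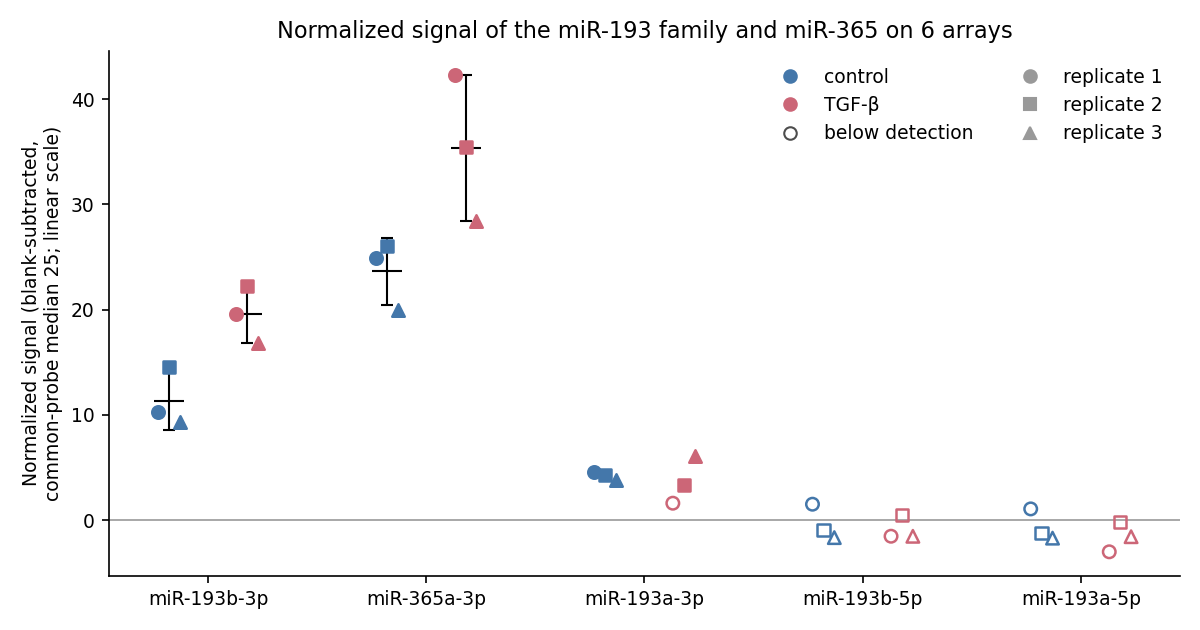
Normalized signal (linear scale) of each member on the control and TGF-β arrays (3 of each), where marker shape gives the replicate number, open markers are below detection, and bars show the mean ± SD for the members detected on all 6 arrays. MiR-193b-3p and miR-365a-3p are higher on every TGF-β array than on any control array, miR-193a-3p lies between 1.61 and 6.05 on all arrays, and the 5p arms lie around 0.

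No member's change is given a p, and over all 323 expressed miRNAs limma called none at an adjusted p of 0.05 (0%, smallest adjusted p = 0.43), with 21 at an unadjusted p under 0.05. The methods' t-test called 1 after Benjamini-Hochberg adjustment, miR-4521. Of the 3 expressed members, 2 had all TGF-β arrays above all control arrays, and over all expressed miRNAs this held for 23, or 7.12%. A ratio of means above 1.5 was found for 1 member, miR-193b-3p, and for 15 of the expressed miRNAs, or 4.64%. The median log2 change of the expressed miRNAs was 0.013. The spread of miR-193b-3p and miR-365a-3p was ordinary: the pooled SD of the log2 signals was 0.28 and 0.25, against a median of 0.29 over the expressed miRNAs. For miR-193a-3p it was 0.33, but with TGF-β array 1 set to its floor of 4.06 in place of the measured 1.61. The floor narrows that spread, so it is not called ordinary.

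**Figure D2:**
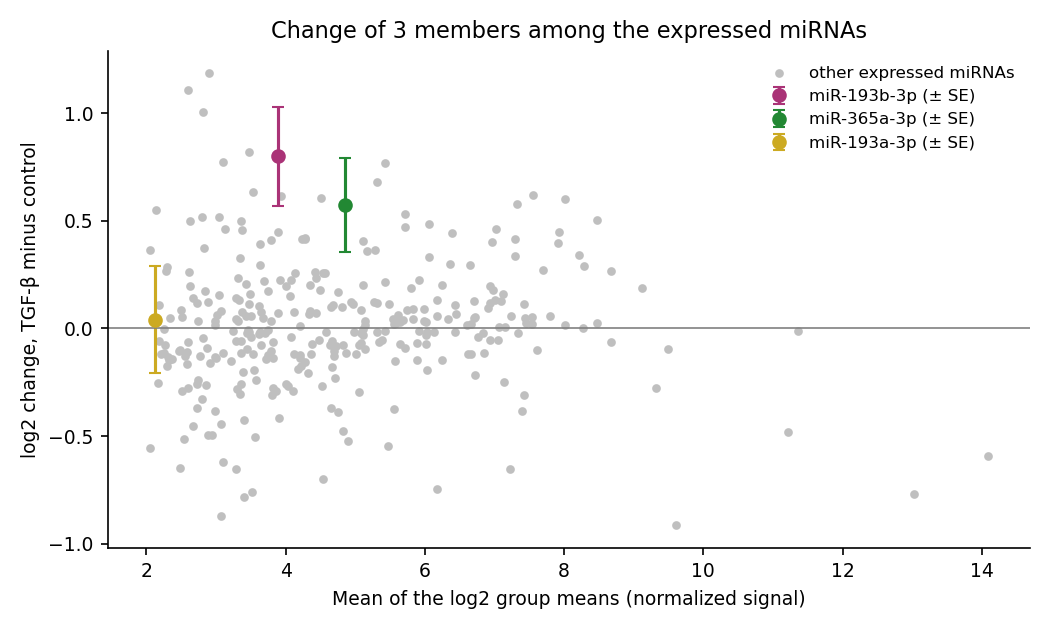
The log2 change (TGF-β minus control) of every expressed miRNA against its mean normalized log2 signal, with 3 members marked and their standard errors as bars. MiR-193b-3p, at 0.80, and miR-365a-3p, at 0.57, lie toward the upper edge of the 323 miRNAs, while miR-193a-3p, at 0.04, lies at the dim end near 0.

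The scaling of an array cancels when members are compared within it, so the changes of the members were also set against each other array by array. The log2 signal of miR-193b-3p minus that of miR-365a-3p was -1.28, -0.84 and -1.10 without TGF-β and -1.11, -0.67 and -0.75 with it. Taken as unpaired groups these values overlapped, with an SD of 0.22 among the control arrays and 0.23 among the TGF-β arrays (n = 3 each). Between arrays of the same replicate number, the difference was higher with TGF-β by 0.17, 0.16 and 0.34, a mean of 0.23 ± 0.10 (SD, n = 3 pairs). Matched by number, the log2 change of miR-193b-3p was thus above that of miR-365a-3p in 3 of 3 pairs. This rests on the matching, as TGF-β array 1 (-1.11) lay below control array 2 (-0.84), and the labels do not say what a number marks. As miR-193b-3p was chosen for its change, the comparison is a description.

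The same comparison with miR-193a-3p has measured values on 5 arrays and a lower bound on TGF-β array 1, where miR-193a-3p was below detection and its floor was used. MiR-193b-3p minus miR-193a-3p was 1.16, 1.75 and 1.29 without TGF-β and 2.74 and 1.48 with TGF-β (replicates 2 and 3). On TGF-β array 1 it was at least 2.27, above every control array, while TGF-β array 3 lay below control array 2, so the groups overlapped. Between arrays of the same number it was higher with TGF-β by at least 1.11 for replicate 1 and by 0.99 and 0.19 for replicates 2 and 3. Over the measured arrays, the mean was 1.40 ± 0.31 (SD, n = 3) in the control cells and 2.11 ± 0.90 (SD, n = 2) in the treated cells. For miR-365a-3p minus miR-193a-3p, the means were 2.48 ± 0.11 (SD, n = 3) and 2.82 ± 0.84 (SD, n = 2), with a bound of at least 3.38 on TGF-β array 1. Here the change between arrays of the same number was at least 0.93 for replicate 1, 0.82 for replicate 2 and -0.16 for replicate 3.

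Centred on its own mean, the log2 signal of miR-193b-3p was -0.52, -0.018 and -0.66 without TGF-β and 0.41, 0.59 and 0.19 with it. That of miR-365a-3p was -0.20, -0.14 and -0.52 without TGF-β and 0.56, 0.31 and -0.013 with it. Both were lowest on control array 3, and in each group array 3 was the lowest of the arrays for both miRNAs. The brightest treated array differed, being TGF-β array 2 for miR-193b-3p and TGF-β array 1 for miR-365a-3p.

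**Figure D3:**
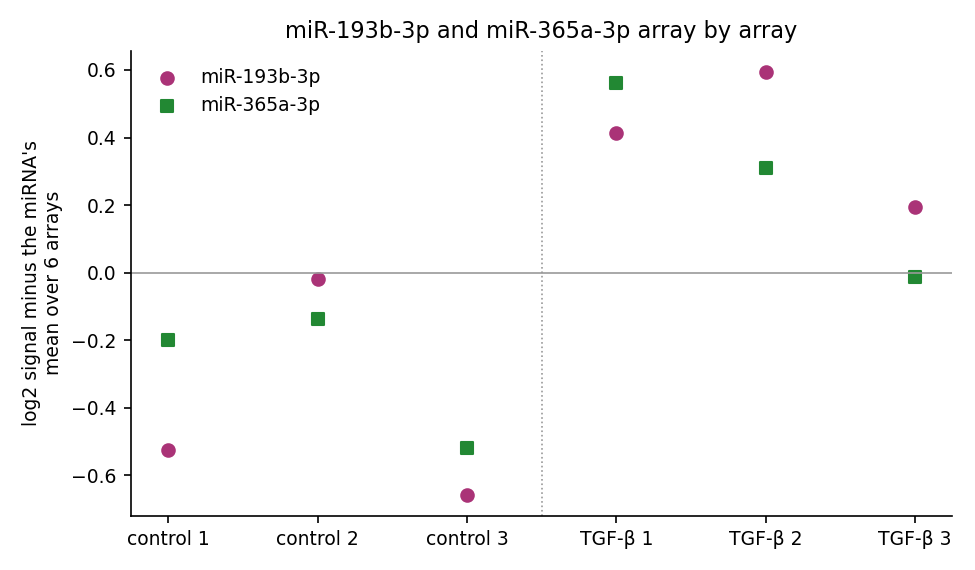
The log2 signal of miR-193b-3p and miR-365a-3p on each of the 6 arrays, after subtraction of each miRNA's own mean over the arrays. All TGF-β arrays lie above all control arrays for each miRNA, and array 3 is the lowest of its group for both.

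Across the 6 arrays, miR-365a-3p was the second most similar (rank 2) to miR-193b-3p among the 291 other probes detected on all arrays, by the root mean square difference of centred log2 signals. That difference was 0.22, against a median of 0.49 over the 291 probes. The most similar was miR-181b-5p (0.11), and miR-4521 (0.22), miR-23a-3p (0.23), miR-222-3p (0.23) and miR-146a-5p (0.24) followed miR-365a-3p. The likeness was not mutual, as miR-193b-3p ranked only 16 from the side of miR-365a-3p, whose nearest were miR-1246 (0.13), miR-181b-5p (0.14) and miR-222-3p (0.17), with a median of 0.39. These values describe 6 arrays that share their scaling and their labelling, and any miRNA that was higher on all TGF-β arrays scores well by this measure.

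The 5p products of the miR-365 hairpins, which share the seed GGGACUU, were looked at beside the members because their sequences differ between the clusters. These products were identical at 19 of 23 positions, and whether a probe also binds the product of the other cluster was not tested. They are not members.
miR-365a-5p: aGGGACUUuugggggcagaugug
miR-365b-5p: aGGGACUUucaggggcagcugu
MiR-365a-5p, from chromosome 16, was detected on control arrays 1 and 3 and on TGF-β array 2 only, at 2.65 to 4.01 SD above the blank spots. MiR-365b-5p, from chromosome 17, was detected on all 6 arrays. Its normalized signal was 8.37, 12.6 and 2.17 without TGF-β and 8.81, 8.35 and 9.16 with it. The controls spanned the whole range of the treated arrays, and control array 3, at 2.08 SD, was barely detected. The mean was 7.73 ± 5.26 (SD, n = 3) in the control cells and 8.78 ± 0.41 (SD, n = 3) in the treated cells, with a log2 change of 0.52 (standard error 0.56) and overlapping groups. Without control array 3 the log2 change was -0.23 (standard error 0.24). In the authors' values the means were 14.9 ± 9.69 (SD, n = 3) and 14.3 ± 3.66 (SD, n = 3), a ratio of 0.96, while the mean of their logs differed by 0.26 the other way, so no direction is given for this miRNA.

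How far the members stood above the controls depended on the scaling. In the authors' own normalized table, the scaling sets a median of 25 over whichever miRNAs an array lists, and between 346 and 507 miRNAs were listed per array. In these values miR-193b-3p was 27.1, 21.4 and 16.9 without TGF-β and 26.2, 49.2 and 23.1 with it. Control array 1 then lay above TGF-β arrays 1 and 3, and the groups overlapped. The means were 21.8 ± 5.11 (SD, n = 3) and 32.8 ± 14.3 (SD, n = 3), a ratio of 1.51.

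For miR-365a-3p the authors' values were 65.8, 38.0 and 36.2 without TGF-β and 56.6, 78.5 and 38.9 with it, a ratio of means of 1.24 with overlapping groups. MiR-193a-3p was listed at 12.1, 6.5 and 6.9 without TGF-β and at 7.4 and 8.3 with TGF-β (replicates 2 and 3). MiR-193b-5p was listed on control array 1 alone, at 4.1, and miR-193a-5p was not listed on any array. With the authors' values the log2 change of miR-193b-3p was 0.53 (standard error 0.48). The median was -0.27 over the 349 miRNAs that were listed on every array of a group. Relative to that median, miR-193b-3p stood at 0.80, and in the scaling used above it stood at 0.79. For miR-365a-3p, the values relative to the median were 0.58 and 0.56. A plain scaling shifts all miRNAs detected on an array alike, so for these members the values relative to the median are nearly alike by construction. They say nothing of stability. For miR-193a-3p, which was not listed on TGF-β array 1, the value relative to the median was 0.03 in the scaling used above. With the authors' values it was -0.13. Among the 4 other scalings and the authors' values, 5 settings in all, the groups of miR-193b-3p were apart in 2 and those of miR-365a-3p in 1.

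With any single array left out, the log2 change of miR-193b-3p lay between 0.67 (without control array 3) and 1.01 (without control array 2). For miR-365a-3p it lay between 0.42 (without TGF-β array 1) and 0.68 (without TGF-β array 3). The rank ran from 6 to 13 for miR-193b-3p and from 12 to 47 for miR-365a-3p. The log2 change of miR-193a-3p took both signs, from -0.25 without TGF-β array 3 to 0.23 without TGF-β array 2. On the chip that holds both groups, TGF-β array 1 is set against the 3 control arrays. There the log2 change was 0.74 for miR-193b-3p and 0.78 for miR-365a-3p. For miR-193a-3p it was -0.13, but this miRNA was below detection on TGF-β array 1. That value comes from the floor of the array and is an upper bound. The other chip holds treated arrays only and gives no value of its own. With normexp background correction, which uses the local background of each spot, the log2 changes were 0.042 for miR-193b-3p and 0.036 for miR-365a-3p. Their ranks were then 94 and 106 of 323, and the groups of both overlapped.

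**Figure D4:**
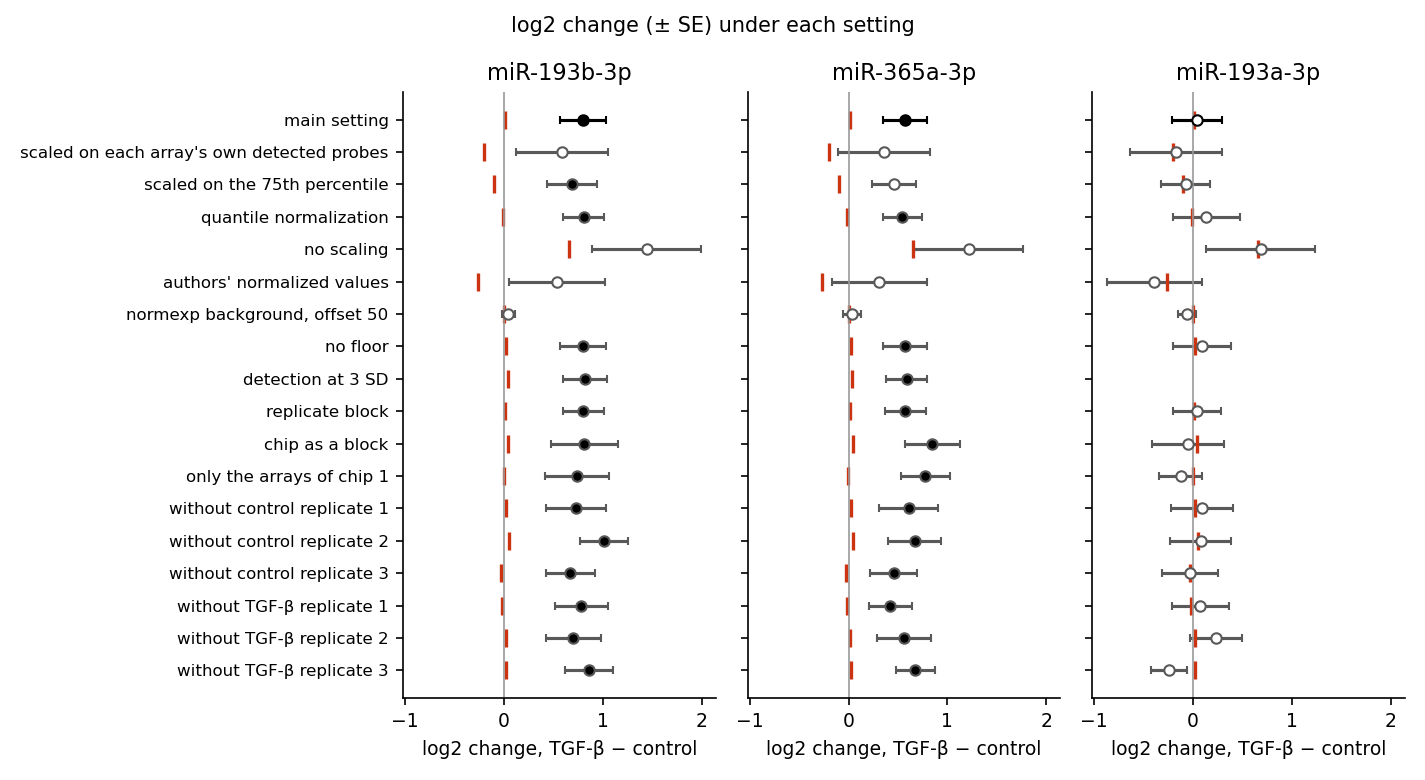
The log2 change (TGF-β minus control, with standard error bars) of 3 members under each processing setting, where filled points mark settings in which all TGF-β arrays lay above all control arrays and red ticks mark the median change of the expressed miRNAs. MiR-193b-3p and miR-365a-3p lie above 0 throughout and close to 0 with normexp, whereas miR-193a-3p takes both signs.

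Among 24 miRNAs known for links to TGF-β or EMT, 19 were expressed and none passed the adjusted p in limma. In 5 of them all TGF-β arrays lay above all control arrays (miR-181a-5p, miR-181b-5p, miR-29a-3p, miR-200b-3p and miR-200c-3p), and in none did all lie below, against 7.12% and 2.79% of the expressed miRNAs. The list was chosen with earlier results of these data known, so these counts are a description and no sign of enrichment. MiR-200b-3p and miR-200c-3p are also on the list of epithelial markers. The log2 changes of the 19 ran from -0.65 to 0.77 with a median of 0.12, beside the median of 0.013 over all expressed miRNAs. MiR-193b-3p, at 0.80, lay just above the highest of them, miR-181b-5p at 0.77, by less than the standard error of either (0.23 and 0.21).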

How the data were processed

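MiRNAs were measured on 6 one-colour 3D-Gene Human miRNA Oligo chip arrays, 3 of control and 3 of TGF-β-treated cells. The authors deposited the scanner output, in which the intensity of each spot and of its local background is a median at 635 nm on a linear scale without normalization, and a table of normalized intensity with a median of 25 over the miRNAs listed on each array. Groups and replicate numbers came from the labels. The members and lists were chosen with earlier results of these data known.

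On each array the mean brightness of the 229 blank spots was taken off, and probes more than 2 SD over it counted as detected. Scaling brought the median to 25 over the 292 probes that were detected 6 of 6 times. Undetected signals took the value of the dimmest detected probe on their array before log2. Spots that failed a flag (0 to 2 human probes per array, no member) were left missing. Groups were compared over the 323 expressed miRNAs with limma 3.58.1 (lmFit and eBayes, R 4.3.3) and Benjamini-Hochberg adjustment, and the step was tested on simulated data. Standard errors of the members are those of this fit. The number of arrays limits the precision. The design allows no exact 2-sided p below 0.1.

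Between pairs of arrays, log2 brightness correlated by 0.956 to 0.992 across miRNAs, so no array was a copy of another. Arrays with the same replicate number deviated together from their group means (r = 0.12, 0.24 and 0.33 over 322 miRNAs, as a description, since miRNAs do not vary independently). Pairs with different numbers ran from -0.46 to 0.44, the highest being control array 1 with TGF-β array 2, above every matched pair. Every matched r exceeded 0.1, but so did that mismatched pair, so these values do not settle whether the numbers pair the arrays. The labels do not say what a number marks. The main fit took the arrays as unpaired, and the replicate block was an alternative. The other alternatives were 4 scalings, the authors' values, normexp with an offset of 50, local background, no floor, other filters and a detection limit of 3 SD, chip as a block or chip 1 alone, the methods' t-test, and leaving out each array. The alternatives for miR-365b-5p were added after its values were seen. Named miRNAs were the members, the other products of their hairpins, miRNAs sharing a seed, and the 5 and 3 most similar to miR-193b-3p and miR-365a-3p.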

Additional observations from a re-analysis of the deposited data

How the results depend on the processing

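All values are log2 changes (TGF-β minus control) unless they are counts. MiR-193b-3p (0.80) and miR-365a-3p (0.57) were above 0 in all 17 alternatives that gave a value. That count is no measure of stability, as miR-193b-3p was chosen for its rise on these same arrays. Some alternatives (no floor, replicate block) cannot move either value. Among the 5 other scalings, the authors' values included, the groups were apart in only 2 and 1. Leaving out an array can hardly make separate groups overlap, so separation in those 6 alternatives carries no weight. With no scaling they were 1.44 and 1.21, beside a median of 0.66 over the expressed miRNAs, and miR-193a-3p was 0.68. With normexp background and an offset of 50 they were 0.042 and 0.036. In the authors' values miR-365a-3p was 0.31 and miR-193a-3p was -0.39, and with chip as a block miR-365a-3p was 0.85. The local background of a spot correlated with its brightness by at least 0.897 on every array across human probes. With it subtracted, 72 miRNAs were expressed, no member among them, and 3 passed the adjusted p in limma. The number of expressed miRNAs past the adjusted p was 0 in 18 of 21 alternatives and 1 in the methods' t-test. With arrays left out it was 0 to 1, where the 1, without TGF-β array 3, was miR-629-5p. Without single arrays miR-193b-3p was 0.67 to 1.01, miR-365a-3p 0.42 to 0.68 and miR-193a-3p -0.25 to 0.23, and over its 16 alternatives miR-193a-3p was above 0 in 8 and below 0 in 8. With detection at 3 SD miR-193a-3p was not expressed, and the 5p arms of miR-193a and miR-193b gave no value in any setting. With the replicate number as a block, the changes were 0.80, 0.57 and 0.04. They were bound to be the same, because each block holds a control array and a TGF-β array. In that fit 0 miRNAs passed the adjusted p (31 at an unadjusted p under 0.05), so the block changed no call. Of 18 alternatives for miR-365b-5p, 16 were above 0 and 2 below, with -0.23 without control array 3. Relative to the blank spots, signal limits miR-193a-3p and both 5p arms. Local background is a limit for the other members too. In brightness, miR-193b-3p was below its local background on control arrays 1 and 2 (50.8 against 54.6, 100.9 against 101.6). The same held on TGF-β arrays 1 and 2 (163.6 against 167.8, 180.4 against 183.1), but not on array 3 of either group. MiR-365a-3p was below it on control array 2 (137.2 against 146.2) and TGF-β array 1 (257.6 against 293.0), but not on the other arrays.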
